A study of Homo sapiens with 34 samples.

Results

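The 6AN culture was compared with itself 24 hr later, as the second against the first circadian cycle of sampling. The members were 12 of the 34 samples of the series, which are the 6 RNA-seq libraries labelled 0 to 20 hr (first cycle) and the 6 labelled 24 to 44 hr (second cycle). They were paired 24 hr apart, so that each pair shared an hour of the 24 hr cycle of the labels. Of the 28690 loci listed, the 13770 with a mean of at least 1 FPKM (fragments per kilobase of transcript, with the number of mapped fragments scaled out) over the 12 libraries were tested. The means of the loci just inside and just outside that limit were 1.00008 and 0.99990 FPKM. The cells were *Bmal1*:*luc* U2OS, a human osteosarcoma line stably carrying luciferase under the *Bmal1* promoter, and both cultures were synchronized with dexamethasone. The 6AN culture received 5 mM 6-aminonicotinamide (6AN), and the control culture, sampled at the same 12 label hours, received DMSO, the solvent.

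Each time point was 1 library. The study describes RNA extraction in triplicate, and the sources used here do not say if these extracts were pooled. Time points of a cycle are not replicates of a condition, so p-values measure the spread between the 6 pairs of libraries of 1 culture. The study's plots number the same time points 24 hr later than the labels, so the first cycle is not the first day after synchronization. The study reports that the drug treatment lengthened the period of circadian rhythms. Libraries 24 hr apart in the 6AN culture may therefore differ in circadian phase, and the pairs were matched by label hour alone. Time in culture and time in 6AN cannot be told apart within the 6AN table. The DMSO culture, which aged over the same hours without 6AN, is therefore given beside it. The tables of the cultures were normalized separately, so only changes within a table were compared.

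The pentose phosphate pathway branches from glycolysis at glucose 6-phosphate. Its oxidative branch, which includes PGD, makes NADPH, and its later enzymes make ribose 5-phosphate for nucleotides. 6AN is converted in cells to an analog of NADP that blocks PGD. NADPH serves reductive synthesis and the thioredoxin and glutathione systems, and ribose supplies DNA and RNA synthesis. U2OS cells cycle continuously and carry functional p53, the transcription factor that induces cell cycle inhibitors and death receptors after damage.

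Among the libraries, relative depth, read from the steps between low FPKM values, ran from 0.696 to 1.48 of the table median in the first cycle and from 0.763 to 1.55 in the second. Absolute depth is unknown. The locus *MIR6723* took 20.3% to 23.0% of all FPKM in the first cycle and 21.8% to 24.3% in the second, against 17.2% to 19.6% over the DMSO culture. Of 7 bone lineage markers, 6 had a mean of at least 1 FPKM, against 1 of 5 epithelial markers (*CLDN4*) and none of the 5 blood or 4 endothelial markers. The summed FPKM of the bone lineage markers ran from 64.7 to 106 in the first cycle and from 43.0 to 57.2 in the second, and that of the epithelial markers from 2.71 to 4.01 and from 1.79 to 2.93. *COL1A1* was the highest bone lineage marker, with a mean of 33.9 FPKM. Its median alone went from 47.9 to 18.6 FPKM, while the marker *RUNX2* was called higher. The part of these shifts in the results below was not tested. In bulk RNA, fewer cells of a kind and less RNA per cell cannot be told apart. Longer lists of the same cell types are used below. In them, 8 of 14 bone lineage, 3 of 8 epithelial, 1 of 7 blood and 0 of 5 endothelial genes were tested.

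In the second cycle of 6AN, 1123 of 13770 loci were called higher (8.16%) and 1273 were called lower (9.24%), where a call is a limma adjusted p of at most 0.05. A limma unadjusted p under 0.05 was far more common, at 4618 of the 13770 loci, both directions together. List counts at an unadjusted p below are to be read beside that number, which is not given for DMSO or for the difference between cultures. The median change over all tested loci was 0.0034 on the log2(FPKM + 1) scale, on which all changes below are given, and the medians of the 6 pairs ran from -0.0218 to 0.0167. The called changes were small: their median was 0.28 for loci called higher and -0.33 for loci called lower, and 24 of the 2396 called loci moved by more than 1. In the DMSO culture, 201 of 13798 loci were called higher (1.46%) and 265 lower (1.92%). The change in 6AN minus the change in DMSO was tested for 13269 loci, of which 377 were called higher (2.84%) and 490 lower (3.69%). Of the 2381 loci called in 6AN and tested in both cultures, 651 also differed from DMSO. Leaving out the pair at 0, 4, 8 or 12 hr left 664, 563, 480 and 566 loci called higher and 694, 678, 620 and 584 called lower, in that order.

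**Figure D1:**
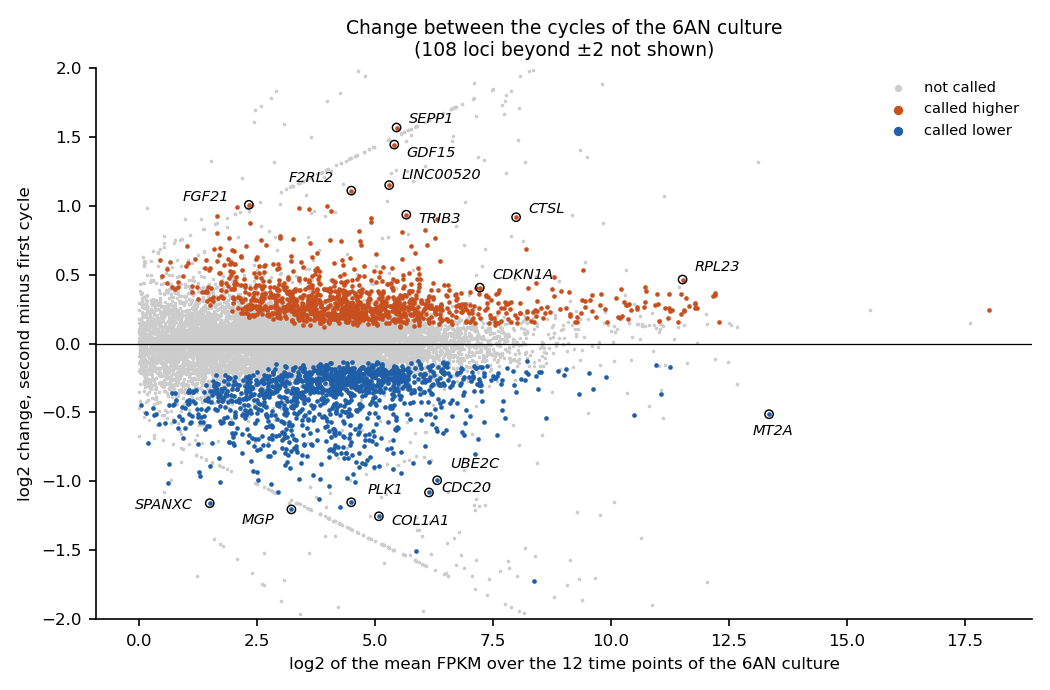
Each point is a tested locus of the 6AN culture, with the log2 of its mean FPKM over the 12 libraries on the x axis and its log2 change between cycles on the y axis. Orange and blue points are the 1123 and 1273 loci called higher and lower, circles mark named genes, and the straight lines of grey points include the 192 loci that were above 0 in 1 library alone. The 108 loci with changes beyond 2 in size are not shown.

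*SEPP1* and *GDF15*, which encode secreted proteins, had the largest rises among called genes of 1 symbol, outside small RNA loci, that moved 1 way in all 6 pairs. *SEPP1* (selenoprotein P, the plasma carrier of selenium, chr5:42756818-42811922 on hg38) ran from 12.8 to 31.4 FPKM (median 21.2) in the first cycle and from 38.6 to 98.0 FPKM (median 66.3) in the second. The cycles did not overlap, and the change was 1.57 ± 0.05 (SE, n = 6 pairs, limma adjusted p = 1.39e-04), against 0.73 ± 0.07 in DMSO. *GDF15*, a stress-induced cytokine of the TGF-beta family, ran from 13.7 to 40.6 FPKM (median 19.9) in the first cycle and from 46.8 to 87.5 FPKM (median 56.5) in the second. Its 6 second-cycle values all lay above its first-cycle values, with a change of 1.44 ± 0.08 (limma adjusted p = 8.51e-04), against 0.82 ± 0.08 in DMSO. *F2RL2*, a protease-activated receptor that binds thrombin, changed by 1.11 ± 0.06 (limma adjusted p = 8.51e-04), against 0.30 ± 0.04 in DMSO. *FGF21*, a metabolic hormone of stressed liver and muscle, ran from 1.31 to 4.46 FPKM (median 3.35) in the first cycle and from 3.93 to 8.98 FPKM (median 7.61) in the second. The cycles of *FGF21* overlapped, although it was higher in all 6 pairs. Its change was 1.01 ± 0.11 (limma adjusted p = 0.00317), against 0.22 ± 0.20 in DMSO, and the difference was not called (limma adjusted p = 0.068).

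*TRIB3*, a pseudokinase induced by ATF4, ran from 27.8 to 44.9 FPKM (median 33.0) in the first cycle and from 47.3 to 97.9 FPKM (median 68.6) in the second. Its cycles did not overlap, and it changed by 0.94 ± 0.06 (limma adjusted p = 0.00134). The other genes with the largest called rises in all 6 pairs are given with their DMSO changes second. They were *LINC00520* (1.15 and 0.64), a long noncoding RNA, *HTN3* (0.99 and 0.86), a salivary histatin, and *BIRC7* (0.99, not tested in DMSO), an inhibitor of apoptosis. The rest were *C9orf84* (0.98 and 0.32), *PSG4* (0.97 and 0.21), *LY96* (0.96 and 0.36), the partner of TLR4, and *MID1IP1-AS1* (0.93 and -0.19). The difference from DMSO was not called for *LINC00520*, *HTN3* and *LY96* (limma adjusted p of 0.165, 0.768 and 0.120). *PSG4* has near-identical paralogs and *MID1IP1-AS1* is antisense to a gene, so reads of either may belong to the partner, since strand use in counting is not stated. *BIRC7* was below the expression limit in DMSO, and the call of *MID1IP1-AS1* ended without the pair at 0 hr or 8 hr (limma adjusted p = 0.0555 at most).

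*COL1A1*, *MGP* and *TIMP3*, which encode proteins of the matrix, had the largest falls among called genes chosen in the same way. *COL1A1*, the main chain of type I collagen (chr17:50184096-50201639), ran from 31.9 to 73.8 FPKM (median 47.9) in the first cycle and from 13.2 to 26.1 FPKM (median 18.6) in the second. No second-cycle value reached the first-cycle range, and the change was -1.25 ± 0.10 (limma adjusted p = 0.00156), against -0.59 ± 0.07 in DMSO. *TIMP3*, an inhibitor of metalloproteinases bound to matrix, ran from 18.4 to 40.8 FPKM (median 25.9) in the first cycle and from 9.18 to 12.3 FPKM (median 11.2) in the second. Its cycles did not overlap either, with a change of -1.19 ± 0.11 (limma adjusted p = 0.00173). *MGP*, matrix Gla protein, which inhibits calcification, ran from 7.34 to 17.8 FPKM (median 13.4) in the first cycle and from 2.86 to 9.90 FPKM (median 5.41) in the second and changed by -1.20 ± 0.16 (limma adjusted p = 0.00541).

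*L1CAM*, a neural cell adhesion molecule, fell from a median of 10.6 to 4.49 FPKM without overlap (-1.08 ± 0.11, limma adjusted p = 0.00247). The remaining large falls were *PLK1* (-1.15), *CDC20* (-1.08), *UBE2C* (-0.99) and *GTSE1* (-1.005), which act in mitosis, with *FAM64A* (-1.03), *SH3RF2* (-1.02), *SPANXC* (-1.16) and *PSPN* (-1.01), a neurotrophic factor of the GDNF family. *SPANXC* belongs to a family of near-identical genes. *SPANXC* and *PSPN* were low, with second-cycle values down to 0, and lost their calls when any 1 of 4 and of 5 pairs, respectively, was left out (limma adjusted p of 0.0782 and 0.0796 at most). The choice of these genes required 1 sign in all 6 pairs, so that their shared direction adds no support.

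Mitotic genes fell as a group. Of 26 listed genes of mitosis, 25 were tested, and all 25 were called lower (against 9.24% of all loci), with a median change of -0.74 and a range from -1.15 to -0.40. *BUB1B* shares a merged locus and was not counted. For 20 of the 25, no second-cycle value reached the first-cycle range, which held for 712 of all tested loci (5.17%). In DMSO, 0 of the 25 were called by limma in either direction, 0 had an unadjusted p under 0.05, and their median change was 0.05. The change in 6AN was lower than in DMSO for 25 of 25 (3.69% of all loci), and for 16 of 25 without the pair at 4, 8 or 12 hr.

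*PLK1*, the kinase that drives entry into and passage through mitosis, ran from 22.7 to 39.0 FPKM (median 31.1) in the first cycle and from 12.4 to 14.4 FPKM (median 13.6) in the second. Its cycles stood apart in 6AN, and it changed by -1.15 ± 0.09 (limma adjusted p = 0.00156), against -0.15 ± 0.13 in DMSO. *CDC20*, the activator of the anaphase-promoting complex, ran from 67.7 to 129 FPKM (median 100.1) in the first cycle and from 41.9 to 48.8 FPKM (median 43.8) in the second. All its second-cycle values lay below the first cycle, at a change of -1.08 ± 0.11 (limma adjusted p = 0.003). *UBE2C*, the ubiquitin-conjugating enzyme of that complex, ran from 80.6 to 149 FPKM (median 101) in the first cycle and from 46.3 to 69.7 FPKM (median 49.8) in the second and changed by -0.99 ± 0.09 (limma adjusted p = 0.00173). *MKI67*, which encodes the proliferation marker Ki-67, ran from 12.6 to 28.2 FPKM (median 19.1) in the first cycle and from 7.57 to 11.2 FPKM (median 9.08) in the second. It had changed by -0.98 ± 0.08 (limma adjusted p = 0.00156), against -0.03 ± 0.08 in DMSO. The smallest fall of the list was that of *CDK1* (-0.40), the mitotic kinase itself, named after its value was seen.

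The fall ran through both cycles. Relative to its own mean over the 12 libraries, the list stood at 0.75 at 0 hr, 0.38 at 8 hr, 0.00 at 20 hr, -0.29 at 24 hr and -0.53 at 44 hr in 6AN. In DMSO, it went from 0.53 at 0 hr to -0.26 at 16 hr and back to 0.07 at 24 hr, and ended at -0.05. The mean difference of the pairs was therefore negative at all 6 hours in 6AN, from -1.04 at 0 hr to -0.53 at 20 hr. In DMSO it was -0.45 at 0 hr and 0.26 at 8 hr, and the DMSO median averages over pairs of opposite sign.

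Promoters of genes expressed late in the cell cycle are known for the cell cycle genes homology region, the letters TTTGAA, bound by the DREAM and FOXM1 complexes. RefSeq promoters on GRCh38.p14, 250 bases before to 50 bases after the start, were found for 20 of the 25 mitotic genes. TTTGAA on either strand stood in 13 of these 20 (65.0%), in 963 of the 10109 promoters found for single-symbol tested genes (9.53%) and in 4212 of all 27305 RefSeq promoters (15.4%). *AURKA*, *BIRC5*, *TPX2*, *TTK* and *UBE2C* had no entry. The promoters of *PLK1* (chr16:23678639-23678938, plus strand), *CDC20* (chr1:43358731-43359030, plus strand) and *MKI67* (chr10:128126374-128126673, minus strand) are shown because these genes fell most among the mitotic genes with an entry and all hold the letters. Capitals mark TTTGAA or its reverse complement, and no matches overlap.
PLK1: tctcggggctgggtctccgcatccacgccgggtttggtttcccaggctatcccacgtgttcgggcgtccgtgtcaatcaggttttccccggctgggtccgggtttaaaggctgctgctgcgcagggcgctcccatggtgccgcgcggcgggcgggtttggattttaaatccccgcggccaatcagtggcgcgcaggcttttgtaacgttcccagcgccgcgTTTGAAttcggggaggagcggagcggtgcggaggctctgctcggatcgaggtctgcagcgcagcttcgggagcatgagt
CDC20: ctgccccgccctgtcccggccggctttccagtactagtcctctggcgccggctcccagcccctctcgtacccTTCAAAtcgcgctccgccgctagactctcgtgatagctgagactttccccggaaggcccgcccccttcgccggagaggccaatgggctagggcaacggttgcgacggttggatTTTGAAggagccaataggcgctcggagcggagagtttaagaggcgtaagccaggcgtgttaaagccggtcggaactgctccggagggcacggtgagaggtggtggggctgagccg
MKI67: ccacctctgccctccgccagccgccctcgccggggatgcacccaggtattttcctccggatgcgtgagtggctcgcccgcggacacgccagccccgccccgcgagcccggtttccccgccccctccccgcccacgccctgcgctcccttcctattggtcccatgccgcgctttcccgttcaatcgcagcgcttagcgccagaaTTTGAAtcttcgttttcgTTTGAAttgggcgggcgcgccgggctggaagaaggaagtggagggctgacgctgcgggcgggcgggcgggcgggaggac
The match in *PLK1* begins 29 bases before the start, those in *CDC20* 178 and 65 bases before it, and those in *MKI67* 47 and 29 bases before it.

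Genes of DNA replication fell less, and not all of them. Of 27, 19 were called lower (against 9.24% of all loci) and 0 higher by limma (20 and 1 at an unadjusted p under 0.05), the median change was -0.41 and single changes ran from -0.69 to 0.19. For 10 of the 27 the second cycle lay wholly below the first (5.17% of all loci). In DMSO, 0 were called by limma, 3 higher and 1 lower had an unadjusted p under 0.05, and the median was -0.01. The change of 12 of the 27 was lower than in DMSO (3.69% of all loci). Leaving out the pair at 0 hr left 12 called, and leaving out that at 12 or 20 hr left 13, in place of 19.

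The genes with the largest falls license and fire replication origins. *GINS2*, a subunit of the replicative helicase, ran from 18.5 to 32.1 FPKM (median 27.8) in the first cycle and from 13.8 to 19.1 FPKM (median 15.9) in the second, and the cycles overlapped. It was lower in all 6 pairs, at -0.69 ± 0.10 (limma adjusted p = 0.00722). *CDT1*, which loads the MCM helicase on origins, ran from 19.2 to 30.1 FPKM (median 22.5) in the first cycle and from 13.5 to 15.6 FPKM (median 14.2) in the second. It fell without overlap (-0.65 ± 0.07, limma adjusted p = 0.003). *MCM5*, a subunit of that helicase, ran from 34.7 to 42.6 FPKM (median 37.1) in the first cycle and from 18.2 to 27.2 FPKM (median 24.4) in the second and changed by -0.64 ± 0.06 (limma adjusted p = 0.00173). *ORC1*, of the origin recognition complex, changed by -0.65 ± 0.15 (limma adjusted p = 0.0266), and its call ended when any 1 of 5 pairs was left out (adjusted p = 0.0732 at most). The 8 members without a call lay between -0.26 and 0.19, and *PCNA*, the replication clamp, stood at 0.07, named here after its value was seen. Among nucleotide synthesis genes, *TK1*, the thymidine kinase of S phase, ran from 35.3 to 55.6 FPKM (median 42.7) in the first cycle and from 19.2 to 26.2 FPKM (median 23.6) in the second. It fell by 0.89 on the log2 scale without overlap (limma adjusted p = 0.00156). Of the 16 members of that list, 2 were called higher and 2 lower (12.5% each, against 8.16% and 9.24% of all loci).

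E2F factors bind GC-rich letters in the promoters of replication genes, of which TTCCCGC is a common form. It stood on either strand in 11 of the 23 promoters found for the replication list (47.8%), in 2 of 20 mitotic promoters and in 1055 of 10109 promoters of tested genes (10.4%). TTTGAA stood in 1 of the 23. The promoters of *CDT1* (chr16:88803539-88803838, plus strand) and *GINS2* (chr16:85688905-85689204, minus strand) are shown as those of the replication genes with the largest falls that hold these letters, with TTCCCGC or its reverse complement in capitals and no overlap between matches.
CDT1: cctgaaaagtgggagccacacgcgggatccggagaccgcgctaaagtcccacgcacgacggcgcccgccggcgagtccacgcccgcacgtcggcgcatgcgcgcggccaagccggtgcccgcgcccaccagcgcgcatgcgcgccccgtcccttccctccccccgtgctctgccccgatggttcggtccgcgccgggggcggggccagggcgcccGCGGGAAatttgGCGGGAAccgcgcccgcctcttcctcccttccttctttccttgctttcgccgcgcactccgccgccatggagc
GINS2: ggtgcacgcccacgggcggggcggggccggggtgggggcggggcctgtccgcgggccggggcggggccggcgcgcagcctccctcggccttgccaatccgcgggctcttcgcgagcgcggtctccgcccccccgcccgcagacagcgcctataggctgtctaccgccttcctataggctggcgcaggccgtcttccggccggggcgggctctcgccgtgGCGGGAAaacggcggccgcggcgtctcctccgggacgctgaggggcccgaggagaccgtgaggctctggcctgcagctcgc
The matches begin 35 and 23 bases before the start of *CDT1* and 31 bases before that of *GINS2*. No binding was measured at these letters.

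**Figure D2:**
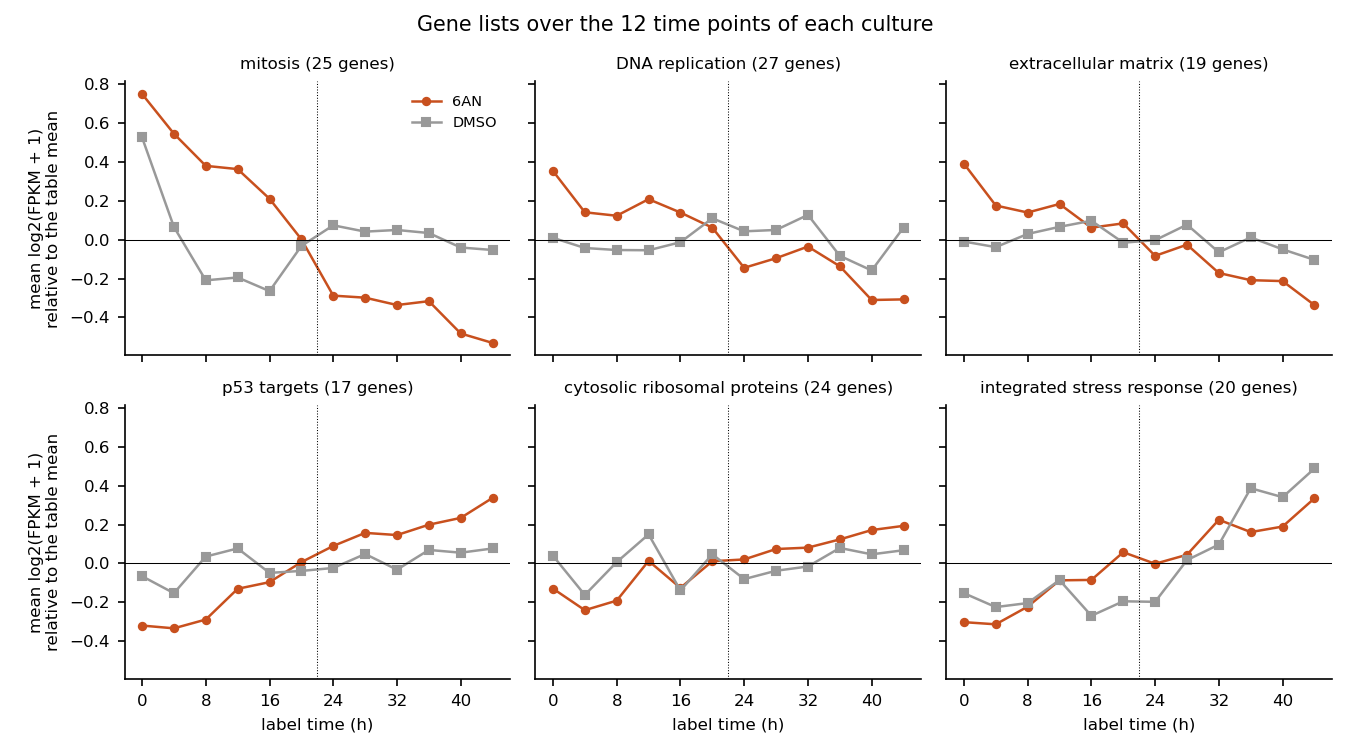
Each panel follows 1 gene list over the label hours (x axis) as the mean over its tested genes of log2(FPKM + 1) relative to each gene's mean over the 12 libraries of its own table (y axis). Orange circles are 6AN, grey squares are DMSO, and the dotted line parts the cycles. The mitosis list descends from 0.75 at 0 hr to -0.53 at 44 hr in 6AN, while the p53 list ascends.

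Most targets of p53 rose. Of 17, 13 were called higher (against 8.16% of all loci) and 0 lower by limma (14 and 0 at an unadjusted p under 0.05), and all 17 changes were positive, with a median of 0.38. For 8 of the 17, every second-cycle value lay above the first cycle (3.56% of all loci). In DMSO, 1 was called higher, *GDF15*, and the median was 0.03. The change exceeded that of DMSO for 10 of 17 (2.84% of all loci), and for 6 of 17 without the pair at 4, 8 or 12 hr.

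*GDF15* was described above, and its change in 6AN exceeded that in DMSO by 0.62 ± 0.12 (limma adjusted p = 0.00891). *TNFRSF10B*, the death receptor DR5, ran from 25.8 to 32.4 FPKM (median 28.3) in the first cycle and from 39.0 to 48.7 FPKM (median 42.5) in the second. Every second-cycle value lay above the first cycle (0.56 ± 0.05, limma adjusted p = 0.0016). *FAS*, the other death receptor of the list, ran from 8.79 to 12.6 FPKM (median 10.2) in the first cycle and from 13.0 to 17.3 FPKM (median 14.7) in the second and changed by 0.49 ± 0.03 (limma adjusted p = 0.00149). *FAS* and *ACTA2* are listed as separate loci with the same span, and since strand use in counting is not stated, their reads cannot be told apart. *RRM2B*, the ribonucleotide reductase subunit that p53 induces, ran from 35.9 to 51.7 FPKM (median 43.6) in the first cycle and from 56.1 to 71.4 FPKM (median 60.8) in the second. It rose without overlap (0.51 ± 0.05, limma adjusted p = 0.00221).

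*CDKN1A* and *MDM2* were named after their values were seen, as the best known targets. *CDKN1A*, which encodes the cell cycle inhibitor p21, ran from 109 to 160.1 FPKM (median 125) in the first cycle and from 151 to 192 FPKM (median 167) in the second in 6AN. Its cycles overlapped, and it changed by 0.41 ± 0.04 (limma adjusted p = 0.00284), against 0.00 ± 0.07 in DMSO. *MDM2*, the ubiquitin ligase that limits p53, changed by 0.47 ± 0.05 (limma adjusted p = 0.00394), against 0.04 ± 0.05 in DMSO. Without a call were *TP53I3*, *DDB2*, *BAX* and *PLK3*, named as the remainder of the list, with values from 0.02 to 0.16. Over 4 successive blocks of 3 time points, the list stood at -0.31, -0.07, 0.13 and 0.26 relative to its mean, and in DMSO between -0.06 and 0.07.

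**Figure D3:**
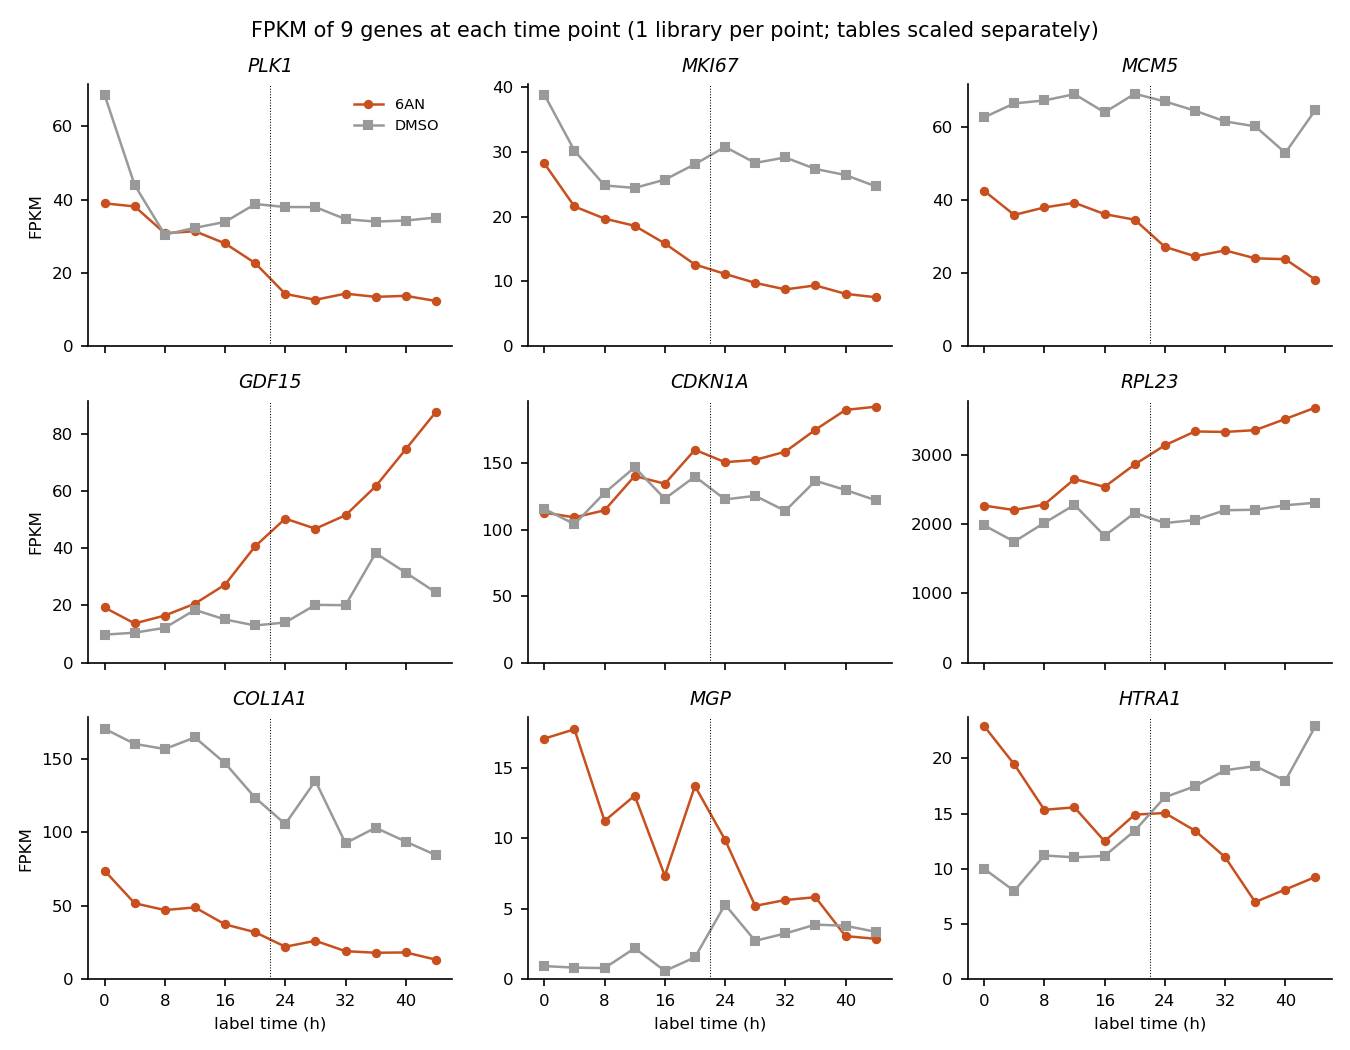
FPKM of 9 genes (y axis, from 0) at each label hour (x axis), 1 library per point, with orange circles for 6AN, grey squares for DMSO and a dotted line between the cycles. The tables were scaled separately, so the shapes can be compared and the levels cannot. *PLK1*, *MKI67*, *MCM5* and *COL1A1* descend in 6AN, *GDF15*, *CDKN1A* and *RPL23* ascend, and *MGP* and *HTRA1* descend in 6AN and ascend in DMSO.

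Many genes of the translation apparatus rose by small amounts. Of 24 cytosolic ribosomal protein genes, 15 were called higher (against 8.16% of all loci) and 0 lower by limma (22 and 0 at an unadjusted p under 0.05), all 24 changes were positive, and the median was 0.22. In DMSO, 0 of the 24 were called by limma, 0 had an unadjusted p under 0.05, and the median was 0.03. The change exceeded that of DMSO for 9 of 24 (2.84% of all loci). These calls depended on scaling and on single pairs: under quantile normalization 6 were called higher, without the pair at 8 hr 7 were, and without any 1 of the 6 pairs the count above DMSO was 0 to 5 in place of 9, lowest without the pair at 8 hr (limma, adjusted p of at most 0.05). *RPL23*, of the large subunit, ran from 2205 to 2863 FPKM (median 2413) in the first cycle and from 3140 to 3685 FPKM (median 3350) in the second. Its cycles did not overlap, and it changed by 0.46 ± 0.05 (limma adjusted p = 0.00228). *RPS6*, the S6 protein of the small subunit, changed by 0.36 ± 0.05 (limma adjusted p = 0.00643), *RPL4* by 0.33 ± 0.04 and *RPS18* by 0.35 ± 0.05. *RPS18* is listed at several loci, and its call was lost under quantile normalization.

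Of 18 aminoacyl-tRNA synthetases, which charge tRNAs with amino acids, 11 were called higher (8.16% of all loci) and 0 lower by limma (13 and 0 at an unadjusted p under 0.05), with a median of 0.19 against 0.12 in DMSO. In 4 the change exceeded that of DMSO (2.84% of all loci), and in 1 without the pair at 4, 8, 12 or 16 hr. *WARS*, for tryptophan, ran from 31.9 to 37.5 FPKM (median 35.4) in the first cycle and from 42.8 to 53.5 FPKM (median 46.6) in the second and changed by 0.41 ± 0.04 (limma adjusted p = 0.00173). *IARS*, for isoleucine, changed by 0.38 ± 0.06, *DARS*, for aspartate, by 0.34 ± 0.05, and *SARS*, for serine, by 0.30 ± 0.04, all called. Proteasome subunits were called at shares near or below those of all loci (8.16% higher and 9.24% lower): 2 of 24 were called higher, *PSMB5* (0.17) and *PSMC6* (0.13), and 1 lower, *PSMB6* (-0.20), with a list median of -0.03. The calls of *PSMC6* and *PSMB6* each ended when any 1 of 5 pairs was left out (limma adjusted p of 0.102 and 0.119 at most).

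Many genes of the integrated stress response, the ATF4 program of amino acid synthesis and stress genes, rose in 6AN, and the list had a positive median in DMSO too. Of 20 tested genes, 13 were called higher in 6AN (against 8.16% of all loci) and 0 lower by limma (15 and 0 at an unadjusted p under 0.05), with a median of 0.30. In DMSO, 4 were called higher (1.46% of all loci) and 14 had a higher value at an unadjusted p under 0.05, with a median of 0.27. The change differed from DMSO for 1 of 20, *CHAC1*, which was lower in 6AN. That count was 3 without the pair at 0 hr and 0 without the pair at 12 hr (limma, adjusted p of at most 0.05). Without the pair at 8 hr, 8 of the 20 were called in 6AN. The pair differences of the list ran from 0.25 to 0.45 in 6AN and from -0.04 at 0 hr to 0.68 at 20 hr in DMSO.

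*DDIT4*, an inhibitor of mTORC1, ran from 32.02 to 72.6 FPKM (median 53.9) in the first cycle and from 73.5 to 97.5 FPKM (median 84.4) in the second. Its cycles did not overlap (0.71 ± 0.14, limma adjusted p = 0.0169), and its call ended without the pair at 4 hr or 8 hr (adjusted p = 0.0609 at most). *CTH*, which makes cysteine from cystathionine, changed by 0.62 ± 0.09 (limma adjusted p = 0.00737) and by 0.61 ± 0.11 in DMSO. *DDIT3*, which encodes the transcription factor CHOP, ran from 52.7 to 87.4 FPKM (median 64.9) in the first cycle and from 78.4 to 122 FPKM (median 102) in the second and changed by 0.60 ± 0.08 (limma adjusted p = 0.00568). *TRIB3*, described above, stood at 0.27 ± 0.16 in DMSO, and its difference between cultures missed the threshold (0.66 ± 0.19, limma adjusted p = 0.0546).

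ATF4 with C/EBP partners binds a composite element that TGATGNAA describes, with N for any base. It stood in 4 of the 17 promoters found for this list (23.5%) and in 176 of 10109 promoters of tested genes (1.74%), on either strand. The promoters of *ASNS* (chr7:97872359-97872658, minus strand) and *CHAC1* (chr15:40953221-40953520, plus strand) are shown because both hold these letters, with a called difference between the cultures for *CHAC1* and none for *ASNS* (-0.46 ± 0.20, limma adjusted p = 0.189), and with the match or its reverse complement in capitals.
ASNS: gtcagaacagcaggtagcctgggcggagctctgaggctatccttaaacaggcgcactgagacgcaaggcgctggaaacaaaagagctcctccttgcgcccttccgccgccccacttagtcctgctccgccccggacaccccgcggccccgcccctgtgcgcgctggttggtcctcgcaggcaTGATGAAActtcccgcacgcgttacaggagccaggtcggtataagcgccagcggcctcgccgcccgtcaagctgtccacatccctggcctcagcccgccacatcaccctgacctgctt
CHAC1: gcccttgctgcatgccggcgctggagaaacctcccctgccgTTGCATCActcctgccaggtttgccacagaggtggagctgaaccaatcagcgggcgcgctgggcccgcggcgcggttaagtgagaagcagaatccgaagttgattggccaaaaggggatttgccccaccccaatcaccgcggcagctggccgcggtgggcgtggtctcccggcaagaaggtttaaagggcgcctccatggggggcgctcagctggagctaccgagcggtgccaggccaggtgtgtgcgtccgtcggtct
The matches begin 68 and 209 bases before the starts. *ASNS*, asparagine synthetase, changed by 0.35 ± 0.07 in 6AN (limma adjusted p = 0.0212), against 0.81 ± 0.17 in DMSO, and its 6AN call ended without the pair at 8, 12 or 20 hr (adjusted p = 0.0691 at most). *CHAC1*, which degrades glutathione, ran from 14.3 to 21.5 FPKM (median 17.9) in the first cycle and from 18.6 to 23.0 FPKM (median 20.8) in the second in 6AN, a mean difference of 0.20 ± 0.08 that was not called (limma adjusted p = 0.117). In DMSO its medians were 4.64 and 13.8 FPKM, a change of 1.31 ± 0.18. The difference between cultures was -1.11 ± 0.21 (limma adjusted p = 0.00999), and it was not called without the pair at 12 hr. Both genes were named after their values were seen.

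Protein folding genes were called at shares near those of all loci (8.16% higher and 9.24% lower). Of 15 chaperones and unfolded protein response genes of the endoplasmic reticulum, 2 were called higher and 1 lower, with a median of 0.004 against -0.06 in DMSO. In 2 of the 15 the change exceeded that of DMSO (2.84% of all loci). *XBP1*, the transcription factor of that response, ran from 56.3 to 73.5 FPKM (median 59.6) in the first cycle and from 71.9 to 100.2 FPKM (median 74.5) in the second and changed by 0.35 ± 0.04 (limma adjusted p = 0.00394). *EDEM1* changed by 0.29 ± 0.06 and *SDF2L1* by -0.31 ± 0.06, both called, the former not without the pair at 0, 4, 8 or 12 hr (adjusted p = 0.065 at most). Of 11 heat shock genes, *HSPA9*, the mitochondrial HSP70, was called higher (0.35 ± 0.04, limma adjusted p = 0.00353) and *BAG3* lower (-0.28 ± 0.08). The call of *BAG3* ended when any 1 of the 6 pairs was left out (adjusted p = 0.124 at most). The median of the 11 heat shock genes was 0.13 in 6AN and -0.12 in DMSO. In 1 of them the change exceeded that of DMSO by limma (7 at an unadjusted p under 0.05), and in 1 to 6 over the alternative settings.

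Part of the extracellular matrix genes fell. Of 19 tested, 10 were called lower (against 9.24% of all loci), 8 were not called and 1 higher (*LUM*, named after its value was seen, and not called without the pair at 4, 8, 12 or 16 hr), and the median was -0.30 against 0.01 in DMSO. In 9 of 18 the change was lower than in DMSO (3.69% of all loci), and in 5 of 18 without the pair at 12 hr. The count of members called lower was 6 without the pair at 0, 8 or 12 hr. *COL6A1*, of the beaded-filament collagen VI, ran from 28.9 to 42.8 FPKM (median 33.4) in the first cycle and from 17.7 to 22.2 FPKM (median 20.7) in the second. Its cycles did not overlap, at -0.70 ± 0.06 (limma adjusted p = 0.00173), against 0.04 ± 0.06 in DMSO. *THBS1*, thrombospondin 1, ran from 28.9 to 45.2 FPKM (median 33.1) in the first cycle and from 16.1 to 24.8 FPKM (median 19.4) in the second and was called lower in both cultures (-0.74 ± 0.06 in 6AN and -0.71 ± 0.07 in DMSO, difference -0.03 ± 0.10). *COL4A1*, of basement membrane, changed by -0.66 ± 0.08 (limma adjusted p = 0.00433).

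Of 11 matrix remodelling genes, 5 were called lower (9.24% of all loci) and 0 higher by limma (6 and 1 at an unadjusted p under 0.05), with a median of -0.34 against -0.09 in DMSO. The change was lower than in DMSO for 4 of 10 (3.69% of all loci), or 2 without the pair at 0, 4, 8 or 12 hr. *LOXL4*, a lysyl oxidase that crosslinks collagen, ran from 148 to 257 FPKM (median 160.5) in the first cycle and from 87.4 to 119 FPKM (median 99.0) in the second. It did not overlap between cycles (-0.80 ± 0.07, limma adjusted p = 0.0016). *LOXL2* changed by -0.73 ± 0.07 (limma adjusted p = 0.00203) and *PLAT*, tissue plasminogen activator, by -0.41 ± 0.08 (limma adjusted p = 0.0192), whose call ended without the pair at 12 hr (adjusted p = 0.0518). Of 8 bone lineage genes, *SPP1*, osteopontin, changed by -0.65 ± 0.11 and *BMP4* by -0.47 ± 0.09, called lower, and *RUNX2*, the osteoblast transcription factor, by 0.22 ± 0.03, called higher. The call of *BMP4* ended without the pair at 0, 4 or 8 hr (limma adjusted p = 0.0555 at most).

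TGF-beta and YAP targets went both ways in 6AN, with 2 called higher and 4 lower of 14 (8.16% and 9.24% of all loci, list median -0.08), or 2 lower without the pair at 0, 4, 12 or 16 hr. In DMSO, 6 were called lower (1.92% of all loci) and 0 higher by limma (9 and 0 at an unadjusted p under 0.05, median -0.28). The change in 6AN exceeded that of DMSO for 4 of 14 (2.84% of all loci), and for 2 without the pair at 8 or 12 hr. *TGFBI*, a secreted adhesion protein, ran from 2.59 to 5.95 FPKM (median 3.27) in the first cycle and from 0.825 to 1.88 FPKM (median 1.24) in the second. It fell in both cultures, by 0.96 in 6AN and 1.05 in DMSO on the log2 scale. *TAGLN*, a smooth muscle actin-binding protein, changed by -0.63 ± 0.07 in 6AN and -1.19 ± 0.09 in DMSO (difference 0.56 ± 0.12, limma adjusted p = 0.02, not called without the pair at 4, 8 or 12 hr). *ACTA2*, smooth muscle actin, rose without overlap between cycles in 6AN (0.56 ± 0.08, limma adjusted p = 0.00722), and it is listed over the same span as *FAS*. *ANKRD1*, a YAP target, changed by 0.35 ± 0.06 in 6AN, against -0.35 ± 0.07 in DMSO (difference 0.69 ± 0.10, limma adjusted p = 0.0025).

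Part of the genes of cholesterol metabolism were called lower in both cultures. Of 18 genes of cholesterol synthesis and uptake, which SREBP2 controls, 8 were called lower in 6AN (9.24% of all loci, list median -0.24) and 16 in DMSO (1.92% of all loci, list median -0.46). For 7 of 18 the change in 6AN was above that in DMSO (2.84% of all loci), and for 3 or 4 without any pair but that at 16 hr. Without the pair at 8 or 12 hr, 3 and 5 of 18 were called lower in 6AN. *MVK*, mevalonate kinase, ran from 7.07 to 10.8 FPKM (median 8.98) in the first cycle and from 3.45 to 6.51 FPKM (median 5.34) in the second and changed by -0.69 ± 0.16 (limma adjusted p = 0.0265), a call that ended without the pair at 4, 8, 12 or 16 hr (adjusted p = 0.0838 at most). *FDFT1*, squalene synthase, ran from 52.2 to 67.0 FPKM (median 60.3) in the first cycle and from 39.2 to 46.6 FPKM (median 41.6) in the second. It fell without overlap (-0.51 ± 0.05, limma adjusted p = 0.00284), and in DMSO by 0.60 on the log2 scale. *DHCR7*, a late enzyme of the pathway, changed by -0.44 ± 0.06 (limma adjusted p = 0.00522), and *MVD* by -0.45 ± 0.08 (limma adjusted p = 0.0142), the latter not called without the pair at 8 hr (adjusted p = 0.0536). Of 11 fatty acid synthesis genes, 2 were called lower, the desaturase *FADS2* (-0.44) and the citrate lyase *ACLY* (-0.18), against 5 in DMSO.

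**Figure D4:**
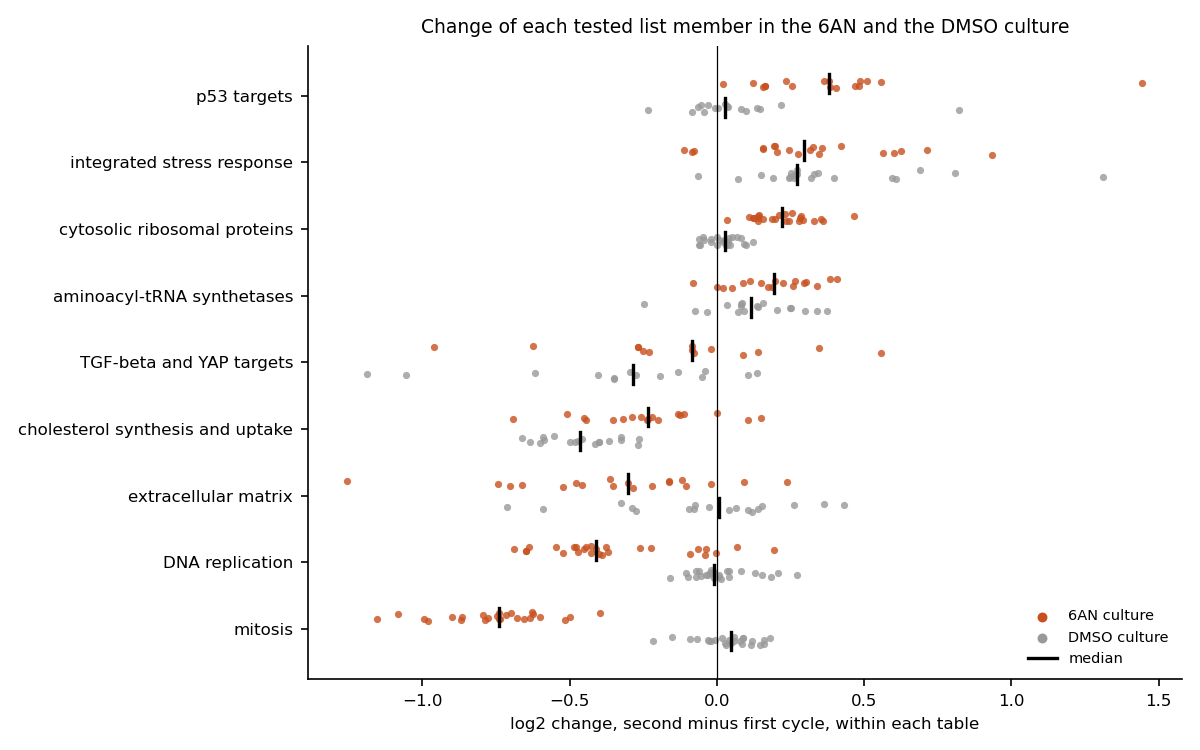
Points are the tested members of 9 gene lists, with the log2 change between cycles on the x axis, orange for 6AN and grey for DMSO, and black ticks at the medians. The mitosis members lie from -1.15 to -0.40 in 6AN and around 0 in DMSO, the integrated stress response medians are 0.30 and 0.27, and the cholesterol median is lower in DMSO (-0.46) than in 6AN (-0.24).

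Enzyme genes of the pathway that 6AN inhibits were called at a share near that of all loci. Of 10, 1 was called higher (10%, against 8.16% of all loci), *RPE*, the epimerase of the nonoxidative branch (0.21 ± 0.05, limma adjusted p = 0.0304). By limma 0 were called lower, with a list median of -0.07. At an unadjusted p under 0.05, 3 were lower, a level that 4618 of all 13770 loci reached in either direction. In DMSO, 1 of 10 was called higher and 1 lower (1.46% and 1.92% of all loci), with a median of -0.03. The change in 6AN was lower than in DMSO for 1 of 10 (3.69% of all loci). The call of *RPE* ended when any 1 of 5 pairs was left out (adjusted p = 0.0834 at most). *PGD*, the enzyme that the product of 6AN blocks, ran from 118 to 142 FPKM (median 133) in the first cycle and from 121 to 131 FPKM (median 125) in the second, a mean difference of -0.06 ± 0.04 (limma adjusted p = 0.404).

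Among 12 other sources of NADPH, 3 were called higher and 2 lower (8.16% and 9.24% of all loci). *IDH2*, mitochondrial isocitrate dehydrogenase, ran from 7.28 to 16.4 FPKM (median 11.5) in the first cycle and from 6.08 to 8.13 FPKM (median 6.81) in the second. It changed by -0.67 ± 0.15 (limma adjusted p = 0.0267), against 0.02 ± 0.06 in DMSO. It was lower in 5 of 6 pairs, but its call ended when any 1 of 5 pairs was left out (adjusted p = 0.0831 at most). The folate enzyme *ALDH1L1*, which is cytosolic, changed by -0.58 ± 0.08 (limma adjusted p = 0.00639), against -0.12 ± 0.12 in DMSO. Its mitochondrial relative *ALDH1L2* changed by 0.38 ± 0.06 (limma adjusted p = 0.0115), and by 0.38 ± 0.16 in DMSO. *MTHFD2*, of mitochondrial folate metabolism, ran from 139.8 to 159 FPKM (median 145) in the first cycle and from 160.2 to 195 FPKM (median 174) in the second. It changed by 0.24 ± 0.04 (limma adjusted p = 0.00945), against 0.53 ± 0.11 in DMSO.

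Of 16 genes of NAD synthesis and use, 3 were called higher and 1 lower (8.16% and 9.24% of all loci). *NNMT*, which methylates nicotinamide, ran from 376 to 515 FPKM (median 422) in the first cycle and from 516 to 624 FPKM (median 548) in the second. It rose without overlap (0.38 ± 0.05, limma adjusted p = 0.00607), against 0.24 ± 0.07 in DMSO. *NAMPT*, the salvage enzyme that makes NAD from nicotinamide, rose without overlap (0.19 ± 0.04, limma adjusted p = 0.0277), against 0.06 ± 0.06 in DMSO. *NADSYN1*, NAD synthetase, changed by 0.25 ± 0.06, against -0.12 ± 0.05 in DMSO. *NAPRT*, which uses nicotinic acid, changed by -0.19 ± 0.05, and by -0.19 ± 0.15 in DMSO. Apart from that of *NNMT*, these calls ended when any 1 of 5 or 6 pairs was left out (limma adjusted p of 0.0795, 0.0743 and 0.104 at most, in that order).

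Redox defense genes had calls in both directions. NRF2, the transcription factor of the response to oxidants, had 3 of 15 targets called higher (20%, against 8.16% of all loci) and 2 lower (13.3%, against 9.24%, list median 0.13, 0.04 in DMSO). *HMOX1*, heme oxygenase, ran from 23.4 to 32.9 FPKM (median 26.1) in the first cycle and from 27.9 to 62.1 FPKM (median 34.3) in the second, and its 44 hr library held the highest value. It changed by 0.45 ± 0.11 (limma adjusted p = 0.0311), against 0.26 ± 0.09 in DMSO. *TXNRD1*, thioredoxin reductase, changed by 0.21 ± 0.04, *AKR1C3* by -0.49 ± 0.10 and *EPHX1* by -0.27 ± 0.07. In DMSO these 3 changed by 0.04 ± 0.07, -0.24 ± 0.07 and -0.26 ± 0.06, in that order. Of the 15 targets, 0 differed from DMSO by limma (1 at an unadjusted p under 0.05). Of 18 peroxiredoxin and thioredoxin system genes, 4 were called higher (22.2%) and 2 lower (11.1%), among them *SESN1* (0.35), *GPX1* (0.24), *SOD2* (0.23) and *GPX4* (-0.20). Without the pair at 8 hr, the 4 calls of higher levels all ended, and each of the redox calls named here ended when any 1 of 2 to 5 pairs was left out.

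Clock genes, many of which encode the transcription factors of the feedback loop that times the cell, had 1 call between the cycles. Of 18 tested in 3 lists, 1 was called (8.16% of all loci were called higher and 9.24% lower), *NFIL3*, an output repressor, which ran from 11.4 to 20.6 FPKM (median 14.4) in the first cycle and from 12.2 to 23.5 FPKM (median 17.4) in the second and changed by 0.19 ± 0.04 (limma adjusted p = 0.0244). Its call ended without the pair at 0, 4, 16 or 20 hr (adjusted p = 0.0647 at most). *NR1D1*, which encodes REV-ERB alpha, had a mean difference of -0.29 ± 0.15, with pair differences from -0.98 at 0 hr to 0.16 at 12 hr. *NR1D1* overlaps *THRA* on the opposite strand. *TEF* went from -0.54 at 0 hr to 0.38 at 16 hr, and *ARNTL*, which encodes BMAL1, from 0.42 at 8 hr to -0.67 at 16 hr. These differences change sign over the cycle, and their means (-0.06 for *TEF* and -0.07 for *ARNTL*) are near 0. Since paired libraries may differ in circadian phase, a pair difference of a clock gene is not a comparison at a known shared phase. The part of a longer period in these differences was not tested.

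The mean difference was 0.19 ± 0.11 for *NR1D2*, 0.03 ± 0.08 for *PER3*, 0.12 ± 0.05 for *NPAS2*, 0.11 ± 0.05 for *RORA* and -0.19 ± 0.09 for *CRY2*, none of them called. *DBP*, an output activator, ran from 11.5 to 28.9 FPKM (median 21.1) in the first cycle and from 11.7 to 26.2 FPKM (median 19.6) in the second and was not called (-0.14 ± 0.11, limma adjusted p = 0.434). In DMSO it changed by 0.58 ± 0.09, and the difference between cultures was -0.73 ± 0.15 (limma adjusted p = 0.0149), a call that ended without the pair at 12 hr. *BHLHE41*, the repressor DEC2, was lower in all 6 pairs without being called (-0.35 ± 0.10, limma adjusted p = 0.055). In DMSO it changed by 0.30 ± 0.05, and it differed from DMSO by -0.65 ± 0.12 (limma adjusted p = 0.00821). Of 199 tested genes with a start site within 1000 bases of a site bound by both BMAL1 and CLOCK in 6AN cells, 26 were called higher (13.1%, against 8.16% of all loci) and 17 lower (8.54%, against 9.24%), with a median change of 0.02.

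A lysosomal protease had the largest change of the autophagy and lysosome list. *CTSL*, the protease cathepsin L, ran from 115 to 235 FPKM (median 177) in the first cycle and from 203 to 444 FPKM (median 355) in the second. The cycles overlapped, yet it was higher in all 6 pairs (0.92 ± 0.07, limma adjusted p = 0.00156), against 0.20 ± 0.06 in DMSO. Of the 20 autophagy and lysosome genes, 6 were called higher (8.16% of all loci) and 3 lower (9.24%), the latter *TFEB* (-0.44), *ULK1* (-0.35) and *ATG9A* (-0.34), which regulate or begin autophagy. Those 3 calls ended without the pair at 4, 8 or 12 hr, among others (limma adjusted p of 0.085, 0.0627 and 0.0603 at most). Of 8 genes that dexamethasone and other glucocorticoids induce, 1 was called higher and 3 lower. *SGK1*, a kinase, ran from 9.68 to 13.5 FPKM (median 11.5) in the first cycle and from 7.89 to 8.88 FPKM (median 8.12) in the second (-0.45 ± 0.06, limma adjusted p = 0.00526). The metallothionein *MT2A* changed by -0.51 ± 0.08 (limma adjusted p = 0.00871), not called under quantile normalization, *MT1X* by -0.40 ± 0.09 and *KLF9* by 0.22 ± 0.06. Metallothioneins are near-identical paralogs, and the calls of *MT1X* and *KLF9* ended when any 1 of 4 and of 5 pairs was left out (0.0811 and 0.129 at most).

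The remaining lists had at most 3 calls in a direction (8.16% of all loci were called higher and 9.24% lower), and leaving out a single pair could lower most of these counts of 1 to 3 calls by 1 or 2. Among 12 hypoxia genes, *VEGFA*, the endothelial growth factor, ran from 41.0 to 58.5 FPKM (median 49.5) in the first cycle and from 61.2 to 82.3 FPKM (median 71.7) in the second. It rose without overlap (0.51 ± 0.04, limma adjusted p = 0.0016) and by 0.44 ± 0.07 in DMSO, and *SLC2A1*, the glucose transporter, changed by 0.21 ± 0.05. Of 12 immediate early genes, *IER3*, listed at several loci, fell without overlap (-0.65 ± 0.07, limma adjusted p = 0.00282), *SRF* changed by -0.26 ± 0.05 and *DUSP1* by 0.29 ± 0.07. Among 16 glycolysis genes, *HK2*, hexokinase 2, changed by 0.39 ± 0.05 and *ENO2* by 0.27 ± 0.05, called higher, and *LDHA*, lactate dehydrogenase, by -0.23 ± 0.03 and *PKM*, pyruvate kinase, by -0.24 ± 0.05, called lower. *NEAT1*, a nuclear noncoding RNA, changed by 0.66 ± 0.10 (limma adjusted p = 0.00823). Calls among these that ended without some pairs were those of *SLC2A1*, *SRF*, *DUSP1* and *PKM* (limma adjusted p of 0.0643, 0.0592, 0.0969 and 0.0598 at most).

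In the TCA cycle, 1 of 14 was called higher, *SUCLA2* (0.20), and 1 lower, *DLST* (-0.24), and 2 of 25 nuclear genes of oxidative phosphorylation were called lower, *UQCRC1* (-0.29) and *NDUFV1* (-0.21). The purine enzymes *ATIC* (0.18) and *IMPDH2* (0.16) were called higher and *IMPDH1* (-0.29) lower. Apart from those of *DLST*, *UQCRC1* and *IMPDH1*, these calls ended when any 1 of 4 to 6 pairs was left out. No tested member of the inflammatory list (7 genes, with *CCL2* (-0.51) and *NFKBIA* (-0.11) nearest to a call), the interferon list (7, with *IFI6* (-0.28)), the epithelial list (3, with *KRT18* (-0.25) and *CLDN4* (-0.26)) or the blood list (1, *LYZ* (0.07)) was called by limma. In these 4 lists, 2 members had a higher and 3 a lower value at an unadjusted p under 0.05, which 4618 of all 13770 loci reached in either direction.

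**Figure D5:**
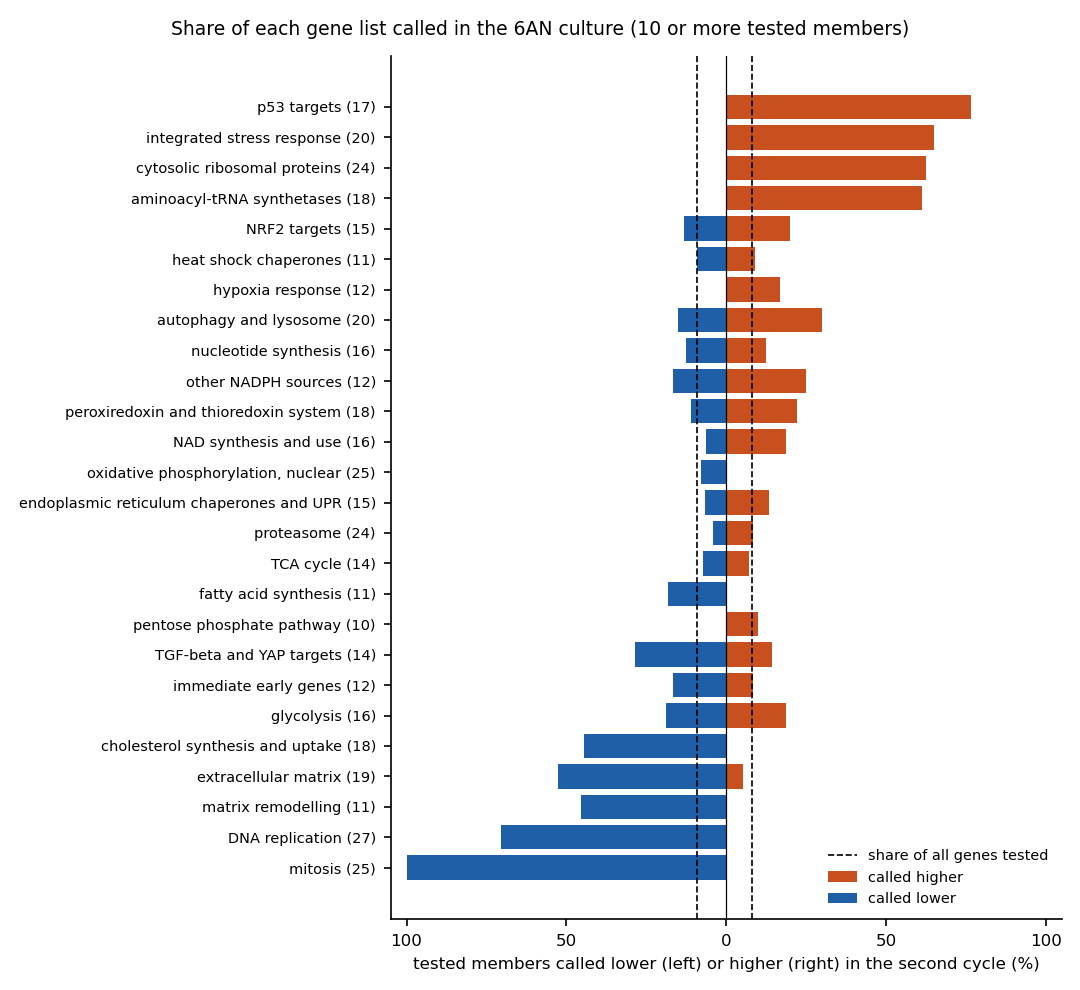
Bars give, for each list with at least 10 tested members (number in brackets), the percent called higher in the second cycle of 6AN (right, orange) and called lower (left, blue), ordered by median change. Dashed lines mark the shares of all tested loci, 8.16% higher and 9.24% lower. Mitosis reaches 100% lower, and p53 targets 76.5% higher.

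*SERPINA1*, *HTRA1* and *MGP*, 3 genes of the smallest p values for the difference from DMSO, went opposite ways in the cultures. *SERPINA1*, the protease inhibitor alpha-1 antitrypsin, ran from 8.39 to 17.6 FPKM (median 11.8) in the first cycle and from 5.35 to 10.4 FPKM (median 6.07) in the second in 6AN (-0.76 ± 0.06). In DMSO its medians went from 34.9 to 60.3 FPKM (0.70 ± 0.08), and the difference was -1.46 ± 0.10 (limma adjusted p = 6.98e-05). *HTRA1*, a secreted serine protease, ran from 12.5 to 22.9 FPKM (median 15.4) in the first cycle and from 6.98 to 15.1 FPKM (median 10.2) in the second in 6AN (-0.63 ± 0.08). In DMSO it went from a median of 11.1 to 18.4 FPKM (0.76 ± 0.06), a difference of -1.39 ± 0.10 (limma adjusted p = 6.98e-05). *MGP*, which fell in 6AN, changed by 1.16 ± 0.17 in DMSO, where it ran from 0.581 to 2.20 FPKM in the first cycle and from 2.72 to 5.29 in the second (difference -2.37 ± 0.24, limma adjusted p = 5.97e-04).

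The other genes lower than in DMSO were *MELK*, a kinase of dividing cells (-0.48 ± 0.04 in 6AN and 0.16 ± 0.05 in DMSO), *CHTF18*, which loads the replication clamp (-0.81 ± 0.06 and 0.05 ± 0.06), and a merged locus that holds *PRH1* (-0.26 and 1.42). Higher than in DMSO were *SEPP1* and *F2RL2*, described above, with differences of 0.84 ± 0.09 and 0.82 ± 0.07, and *FKBP9*, a prolyl isomerase of the endoplasmic reticulum, which ran from 15.2 to 24.3 FPKM (median 21.6) in the first cycle and from 31.5 to 47.2 FPKM (median 39.2) in the second (0.88 ± 0.04 in 6AN and 0.22 ± 0.04 in DMSO). *FKBP9* has a pseudogene copy, so its reads may be shared. *NAP1L1*, a histone chaperone, ran from 323 to 421 FPKM (median 369.8) in the first cycle and from 468 to 563 FPKM (median 512) in the second and changed by 0.49 ± 0.04 in 6AN, against 0.01 ± 0.04 in DMSO. *NEDD9*, a scaffold of focal adhesions, was not called in 6AN (0.02 ± 0.07) and was called lower in DMSO (-0.79 ± 0.05). *ARHGAP23*, listed at several loci, changed by 0.19 ± 0.04 and -0.33 ± 0.04, and its 6AN call ended without the pair at 4, 8 or 12 hr (limma adjusted p = 0.0643 at most).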

How the data were processed

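RNA was sequenced as rRNA-depleted total RNA, 1 library per time point, from a culture in 6AN and one in DMSO. The deposited values are FPKM per locus, which the authors made on hg38 with tools that the submitters' processing notes list as TopHat, Bowtie and Cufflinks, and each culture's table was normalized separately. Absolute depth is unknown, and strand use is not given in the sources used here. log2(FPKM + 1) was fitted with limma 3.58.1 (R 4.3.3), second against first cycle with hour of the cycle as a block, over loci with a mean of at least 1 FPKM, with Benjamini-Hochberg adjustment over all of them and a call at 0.05 or below. For 6AN minus DMSO, limma was run on the 6 paired differences of each table. The fits were tested on simulated data. Named genes were the 12 largest called rises and falls of 1 sign in all 6 pairs, up to 4 called members per list (2 of smallest p where none was called), the 6 of smallest p against DMSO in each direction, *PGD* and 6 clock genes. Some genes are not reported here. The members and lists were chosen with earlier results of these data known. Alternatives were another pseudocount, filters, scalings, models and omitted pairs. The lists of mitochondrially encoded transcripts and endothelial markers had no tested member. Peak tables served to define 1 gene list only, and 0 columns were left out.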

Additional observations from a re-analysis of the deposited data

Results flagged for a closer look

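Single libraries stood apart from the other 5 of their cycle, by Dixon's criterion, for 16 of the 332 groups of 6 values of the named genes, where chance gives about 1 in 20. Time points of a cycle are not replicates. The value lay above the others for *ACTA2* at 36 hr (17.5 FPKM), *DARS* at 20 hr (37.3 FPKM), *EPHX1* at 44 hr (42.5 FPKM), *FADS2* at 24 hr (23.8 FPKM), *HMOX1* at 20 hr (32.9 FPKM), *HMOX1* at 44 hr (62.1 FPKM), *HTN3* at 20 hr (15.0 FPKM), *LOXL4* at 0 hr (257 FPKM), *NNMT* at 20 hr (515 FPKM), *SGK1* at 28 hr (8.88 FPKM), *TGFBI* at 0 hr (5.95 FPKM), *UBE2C* at 24 hr (69.7 FPKM) and *XBP1* at 44 hr (100.2 FPKM). It lay below the others for *ARHGAP23* at 4 hr (30.9 FPKM), *COL6A1* at 44 hr (17.7 FPKM) and *MVD* at 28 hr (29.3 FPKM).

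The change between cycles differed between 6AN and DMSO (limma on the 6 paired differences of each culture, adjusted p of at most 0.05) for 71 of the 166 named genes, given here as the change in 6AN minus that in DMSO. Of all loci tested, 2.84% were called higher and 3.69% lower. Some named genes were chosen by this same difference, by a large change in 6AN or after their values were seen. The count of 71 is therefore no measure of how often the cultures differed. The change was higher in 6AN for 34. Among targets of p53 these were *GDF15* (0.62), *FAS* (0.55), *MDM2* (0.43), *TNFRSF10B* (0.42), *CDKN1A* (0.41), *TP53I3* (0.40) and *RRM2B* (0.36). Among ribosomal proteins, tRNA synthetases and initiation factors they were *WARS* (0.34), *EIF3A* (0.34), *RPL23* (0.34), *RPS6* (0.32), *RPS18* (0.31), *RPL4* (0.30), *IARS* (0.29) and *DARS* (0.26). The others were *MID1IP1-AS1* (1.12), *SEPP1* (0.84), *F2RL2* (0.82), *NEDD9* (0.81), *PSG4* (0.77), *CTSL* (0.72), *ANKRD1* (0.69), *FKBP9* (0.67), *C9orf84* (0.66), *GPNMB* (0.64), *BEX1* (0.61), *TAGLN* (0.56), *ARHGAP23* (0.53), *NAP1L1* (0.48), *NFIL3* (0.37), *HSPA9* (0.37), *NADSYN1* (0.36), *SLC2A1* (0.35) and *IMPDH2* (0.29). The change was lower in 6AN for 37. Genes of mitosis, replication and the cell cycle among them were *FAM64A* (-1.05), *PLK1* (-1.0), *UBE2C* (-0.96), *MKI67* (-0.95), *KIF2C* (-0.89), *GTSE1* (-0.88), *CDC20* (-0.86), *CHTF18* (-0.86), *MYBL2* (-0.86), *KIF18B* (-0.81), *FOXM1* (-0.80), *CENPM* (-0.79), *TK1* (-0.76), *MELK* (-0.65), *GINS2* (-0.63), *TUBA1B* (-0.61), *CDT1* (-0.59), *FANCG* (-0.54), *MCM5* (-0.53) and *CDK1* (-0.48). The others were *MGP* (-2.37), the merged locus of *PRH1* (-1.68), *SERPINA1* (-1.46), *HTRA1* (-1.39), *CHAC1* (-1.11), *L1CAM* (-1.03), *TXNIP* (-1.01), *SH3RF2* (-0.97), *TIMP3* (-0.81), *COL6A1* (-0.74), *DBP* (-0.73), *IDH2* (-0.68), *COL1A1* (-0.66), *BHLHE41* (-0.65), *LOXL2* (-0.61), *IER3* (-0.51) and *PLAT* (-0.42). The difference was called in all 6 omissions of a pair of time points for 47 of the 71 genes. For the other 24 it ended without the pair at 8 hr (*CDKN1A*), without the pair at 12 hr (*CHAC1* and *DBP*), without the pair at 0 or 8 hr (*RPL23*), without the pair at 4 or 8 hr (*RPL4* and *NADSYN1*), without the pair at 0, 4 or 8 hr (*BEX1*), without the pair at 4, 8 or 12 hr (*CDC20*, *TUBA1B* and *TAGLN*), without the pair at 4, 12 or 16 hr (*SLC2A1*), without the pair at 0, 4, 12 or 20 hr (*TP53I3* and *PSG4*), without the pair at 0, 8, 16 or 20 hr (*NFIL3*), without the pair at 4, 8, 12 or 16 hr (*DARS*), without the pair at 4, 8, 12 or 20 hr (*FAM64A*), without the pair at 0, 4, 8, 12 or 20 hr (*IDH2*, *RPS18*, *RPS6* and *MID1IP1-AS1*), without the pair at 4, 8, 12, 16 or 20 hr (*CDK1* and *WARS*), without the pair at 0, 4, 8, 12, 16 or 20 hr (*PLAT* and *IARS*).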

How the results depend on the processing

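Leaving out 1 pair of time points left 480 to 880 loci called higher and 584 to 1040 called lower in 6AN, 146 to 255 and 230 to 382 whose change was higher or lower than in DMSO, and 125 to 163 called members of the gene lists in place of 194. Fewer pairs were tested in these fits. The median change over all loci ran from -0.0006 to 0.0057. Of the 2396 called loci, 1062 to 1687 kept the call and none reversed its sign. The pairing came from the label hours. Deviations from the cycle means correlated from -0.08 to 0.031 between libraries of the same hour, above 0.1 in 0 of 6 pairs, and no library correlated best with its own hour. Without the block for hour of the cycle, 1244 and 1455 loci were called higher and lower, 2092 of the 2396 among them, and 197 list members. With the hour as a block over the differences of both tables, 332 and 430 loci were called higher and lower than in DMSO in place of 377 and 490.

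Counts of loci called higher and lower were 1156 and 1315 with a pseudocount of 0.1, 1157 and 1223 above a mean of 5 FPKM, 796 and 954 with no limit on FPKM, 1235 and 1356 after centring each library on its median, 1232 and 1267 after quantile normalization, 1385 and 1541 without small RNA loci and 1508 and 1780 with a slope over the 12 time points and a 24 hr cosine and sine in place of the paired cycles. No alternative reversed the sign of a named gene that was called, while those not called include genes that changed sign without 1 pair (*ARNTL*, *TEF*, *PER3*, *NEDD9* and *LYZ* among them), and quantile normalization reversed the sign of 4 of the 2396 called loci, of which 2251 kept the call. Of the 166 named genes, 16 lost the call in 6AN with no limit on FPKM, 13 without the block, 6 with the slope and 4 after quantile normalization, among them *MT2A* and *RPS18*. Against DMSO, 9 named genes lost and 6 gained a call with the block. Without a known depth, the values of low loci have no counting interval.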

Other observations

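*FOXM1*, *MYBL2* and part of several cell cycle gene families were called lower in 6AN. The following genes and families were chosen after their values were seen, and their counts stand beside the 9.24% of all loci called lower and 8.16% called higher in 6AN. Counts of a lower change than in DMSO stand beside 3.69% of all loci. *FOXM1* and *MYBL2*, transcription factors that drive late cell cycle genes, ran from 47.6 to 83.1 FPKM (median 60.2) in the first cycle and from 28.4 to 35.4 FPKM (median 30.8) in the second, and from 21.5 to 48.6 FPKM (median 29.0) in the first cycle and from 11.9 to 19.4 FPKM (median 16.1) in the second, respectively. Neither gene overlapped between the cycles, and they changed by -0.94 ± 0.07 in 6AN, against -0.13 ± 0.07 in DMSO, and by -0.94 ± 0.08 in 6AN, against -0.09 ± 0.06 in DMSO (limma adjusted p = 0.00156 and 0.00156 in 6AN). Of 14 tubulins, the subunits of microtubules, 10 were called lower by limma, with a median of -0.57 against -0.11 in DMSO, and 7 had a lower change than in DMSO. *TUBA1B* changed by -0.69 ± 0.12 in 6AN, against -0.08 ± 0.07 in DMSO, and *TUBB4B* by -0.66 ± 0.10 in 6AN, against -0.10 ± 0.11 in DMSO. Tubulin genes are close paralogs that can share reads. Of 32 kinesins, the motors of microtubules, 14 were called lower, led by *KIF18B* (-0.88 ± 0.10 in 6AN, against -0.06 ± 0.07 in DMSO) and *KIF2C* (-0.87 ± 0.10 in 6AN, against 0.02 ± 0.12 in DMSO). Of 18 centromere proteins, 11 were called lower, among them *CENPM* (-0.76 ± 0.10 in 6AN, against 0.03 ± 0.07 in DMSO). Part of the kinesins and centromere proteins also belong to the mitosis list above, so their counts are not separate from its count. Of 9 Fanconi anaemia proteins, which repair DNA crosslinks, 6 were called lower, and 5 had a lower change than in DMSO, among them *FANCG* (-0.62 ± 0.08 in 6AN, against -0.08 ± 0.06 in DMSO).

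Of 12 subunits of the initiation factor eIF3, 5 were called higher by limma, with the largest value in *EIF3A* (0.40 ± 0.05 in 6AN, against 0.06 ± 0.03 in DMSO). Of 74 mitochondrial ribosomal proteins, 5 were called higher and 2 lower, with a median of 0.06. Of 9 genes of the BEX and TCEAL family, 6 were called higher, with a median of 0.41 against 0.20 in DMSO. *BEX1* changed by 0.83 ± 0.11 in 6AN, against 0.22 ± 0.06 in DMSO, and *BEX2* by 0.82 ± 0.08 in 6AN, against 0.20 ± 0.17 in DMSO. The DMSO values of *BEX1* and *BEX2* were not called. Of 9 S100 calcium-binding proteins, 4 were called lower in 6AN and 3 of 8 in DMSO, and the change of none was called different between the cultures, with *S100A4* at -0.73 ± 0.12 in 6AN, against -0.51 ± 0.09 in DMSO and *S100A2* at -0.57 ± 0.08 in 6AN, against -0.60 ± 0.10 in DMSO. *GPNMB*, a lysosomal glycoprotein, ran from 17.6 to 26.8 FPKM (median 19.8) in the first cycle and from 31.4 to 50.3 FPKM (median 39.0) in the second and changed by 0.91 ± 0.04 in 6AN, against 0.27 ± 0.08 in DMSO (limma adjusted p = 6.44e-04 in 6AN). *TXNIP*, which binds thioredoxin and limits glucose uptake, had a mean difference of 0.06 ± 0.04 in 6AN (limma adjusted p = 0.362) and changed by 1.07 ± 0.13 in DMSO, where its medians were 14.4 and 31.5 FPKM. The difference between cultures was -1.01 ± 0.14 (limma adjusted p = 0.0025).

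CACGTG, the E-box that BMAL1 with CLOCK and also MYC bind, stood on either strand of the promoter window of 119 of 849 genes called higher (14%), 78 of 1014 called lower (7.69%), 1024 of 10109 tested (10.1%) and 2030 of all 27305 RefSeq promoters (7.43%). TTTGAA stood in 14.7% of the promoters of genes called lower, 8.83% of those called higher, 9.53% of those tested and 15.4% of all RefSeq promoters. For TTCCCGC these shares were 11.6%, 9.31%, 10.4% and 6.56%, in that order. These shares are descriptions and were not tested.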
